A study of Homo sapiens with 6 samples.

Results

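The miR-320 family (hsa-miR-320a, hsa-miR-320b, hsa-miR-320c, hsa-miR-320d and hsa-miR-320e) and hsa-miR-484 were examined for recovery by an antibody against 7-methylguanosine (m7G). The members, written below without the species prefix, are 6 of 2588 mature miRNAs counted in Caco-2 cells, an established human cell line derived from a colorectal adenocarcinoma. They were chosen because precursors of this kind are known to be made without Drosha and to carry an m7G cap. Small RNA libraries were sequenced from 3 samples of input RNA and from 3 m7G-RIP samples. m7G-RIP stands for the same kind of RNA after immunoprecipitation with an anti-m7G antibody. The study's protocol heat-denatures the RNA before the input aliquot is saved. All 6 samples were untreated Caco-2 RNA, and no antibody-free or IgG control libraries were analysed here. The labels do not say whether samples of a group came from separate cultures, so p-values measure the spread between these samples, which may be technical.

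Most miRNA precursors are cut out of a longer primary transcript by the nuclear nuclease Drosha and then trimmed by Dicer, so the mature miRNA begins with a 5′ phosphate. The precursors of miR-320 and miR-484 are a known exception. Transcription starts at or near the 5′ end of the hairpin, the hairpin keeps the m7G cap of its transcript, and export from the nucleus uses Exportin 1. In the miR-320 precursor the cap lies at the 5′ end of the 5p arm, and the arm that enters Argonaute is the 3p arm, cut free by Dicer. m7G can also occur inside an RNA, where METTL1 places it in some RNAs. The antibody recognizes m7G in RNA, and the study's protocol removes caps to keep the signal to internal m7G. The study's protocol starts the immunoprecipitation from decapped RNA, while the labels of these libraries do not mention that step. This capped pathway was described for miR-320a and miR-484, and read counts on mature miRNAs cannot show whether the precursors of the paralogues miR-320b to miR-320e are capped.

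The mature sequences below are shown because they carry the contrast between the family and miR-484, and the capitals mark the seed, bases 2 to 8. They come from RefSeq on GRCh38.p14 and are written as RNA from 5′ to 3′. In the set of RefSeq sequences used, 5 of the 6 members were found by name, and miR-320a was not found under that name.
miR-320b: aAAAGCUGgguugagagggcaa
miR-320c: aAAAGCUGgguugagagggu
miR-320d: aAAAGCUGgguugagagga
miR-320e: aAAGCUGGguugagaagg
miR-4429: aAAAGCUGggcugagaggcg
miR-484: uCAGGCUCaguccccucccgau
miR-320b, miR-320c and miR-320d share the seed AAAGCUG and their first 18 bases, aaaagcuggguugagagg. Counted from the 5′ end of miR-320b, miR-320c differs from it by C20U and miR-320d by G19A over the bases both have. miR-320e begins 1 base later on the same sequence, so its seed is AAGCUGG, and over the 18 bases it shares with miR-320b it differs by G17A. miR-4429 is no member but is the only other listed miRNA with a RefSeq sequence that has the seed AAAGCUG, and it differs from miR-320b by U11C, G19C and C20G. miR-484 has an unrelated sequence. Of its 22 bases 10 are cytidines and 4 are guanosines, while miR-320b has 9 guanosines and 2 cytidines in the same length.

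The arm that is counted, as placed in the RefSeq hairpins, differs between the family and miR-484. The arm was named by the side of the RefSeq hairpin's midpoint on which the mature miRNA is centred. Whether the capped precursors have the same ends as these hairpins was not examined. In all 7 RefSeq hairpins of miR-320b to miR-320e the mature miRNA lies on the 3p arm, after 40 to 43 bases of hairpin. In the hairpin of miR-484 it lies on the 5p arm, from base 8 to base 29 of 79. No entry for the opposite arm of any member was listed (0 entries), so reads from the 5p arm of the miR-320b to miR-320e hairpins were not counted under these names.

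**Figure D1:**
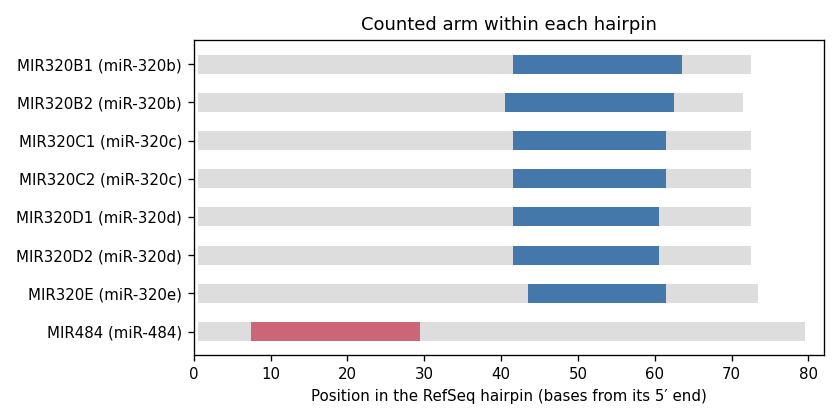
Each grey bar is a RefSeq hairpin drawn to scale in bases from its 5′ end (horizontal axis), and the coloured block is the mature miRNA that is counted. The blue blocks of the 7 hairpins of miR-320b to miR-320e start at base 41 to 44, on the 3p arm, and the red block of miR-484 starts at base 8, on the 5p arm.

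The hairpins also differ in where they lie. MIR484, at chr16:15643294-15643372 on the plus strand of GRCh38, is inside an exon of NDE1, a gene for a protein of the centrosome and dynein pathway. It overlaps an untranslated region there in GENCODE release 44. The hairpin starts 27 bases after the start of an annotated NDE1 transcript, the first listed that overlaps it, and the mature miR-484 starts 34 bases after it. The starts of other NDE1 transcripts were not compared. None of the 7 hairpins of miR-320b to miR-320e overlaps an exon of another gene. MIR320B2 (chr1:224257040-224257110, minus strand) and MIR320E (chr19:46709282-46709354, minus strand) are in introns of NVL and PRKD2 on the same strand. MIR320C1 (chr18:21683518-21683589) and MIR320C2 (chr18:24321675-24321746), both on the plus strand, lie opposite introns of ABHD3 and OSBPL1A. MIR320B1 (chr1:116671746-116671817, plus strand), MIR320D1 (chr13:40727816-40727887, minus strand) and MIR320D2 (chrX:140926160-140926231, minus strand) overlap no other annotated gene.

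Counts on miRNAs summed to 16466178 to 19628046 in the input libraries and to 1654102 to 3105129 in the m7G-RIP libraries. Values are given as CPM, the counts relative to each library's total scaled by TMM factors. Log2 enrichment is m7G-RIP over input, fitted with the quasi-likelihood test of edgeR, and p-values were adjusted by Benjamini-Hochberg over the 800 miRNAs that passed its filter on low counts. All 6 members passed. CPM was not divided by length, and levels set side by side between miRNAs are levels of counted reads, not of molecules. The 5 intestinal and epithelial miRNAs used as markers summed to 104087 to 111325 CPM in the input, and 9 markers of other cell types to 860 to 938 CPM, with miR-122-5p at 0 counts in every library and miR-1-3p making up 617 to 684 CPM. Their part in the results was not tested.

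In Caco-2 cells the 5 members of the miR-320 family were enriched in m7G-RIP, while the call for miR-484 depended on the scaling. miR-320a to miR-320e rose 4.22-fold to 6.84-fold over input, and miR-484 was 1.66-fold lower under TMM scaling and was called enriched under total-count scaling. At an adjusted p-value under 0.05, 5 of 6 members were enriched, where 40.1% of all miRNAs tested were, and 1 was depleted, where 38.1% were. The median log2 enrichment of the 5 miR-320 members was 2.60, beside 0.16 over all miRNAs tested. The share of all tested miRNAs whose groups did not overlap was not counted. Where groups are said below not to overlap, this describes the values and does not set the members apart.

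miR-320a, the most abundant member and the one whose capped precursor is best described, had 44834, 45299 and 42416 counts in input replicates 1 to 3. In m7G-RIP it had 80315, 97068 and 69716 counts. As CPM these were 3822, 3549 and 3701 in the input and 19497, 21857 and 25686 in m7G-RIP. Every m7G-RIP library was above every input library. The mean was 3691 ± 137 CPM in the input and 22347 ± 3123 CPM in m7G-RIP (SD, n = 3 each), which gave a log2 enrichment of 2.60 (standard error, SE, 0.15, edgeR adjusted p = 3.64e-09). Its share of all counts was 0.253% ± 0.0197 (SD, n = 3) in the input and 3.31% ± 0.823 (SD, n = 3) in m7G-RIP.

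miR-320b, whose mature sequence comes from a pair of loci on chromosome 1, had 432, 446 and 447 CPM in the input and 2320, 2971 and 3442 CPM in m7G-RIP. The groups did not overlap, and the log2 enrichment was 2.72 (SE 0.17, edgeR adjusted p = 6.08e-09). miR-320c had 183, 197 and 192 CPM in the input and 953, 1378 and 1584 CPM in m7G-RIP. It was again higher in all m7G-RIP libraries, with a log2 enrichment of 2.77 (SE 0.19, edgeR adjusted p = 1.83e-08). miR-320d had 54.1, 61.0 and 53.3 CPM in the input and 275, 356 and 360 CPM in m7G-RIP, a log2 enrichment of 2.56 (SE 0.17, edgeR adjusted p = 1.78e-08). Both miR-320c and miR-320d were above their input range in all 3 m7G-RIP libraries.

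miR-320e, the shortest and rarest member, was measured on 64 to 65 counts per input library and on 95, 89 and 70 counts in m7G-RIP. These are 5.54, 5.01 and 5.67 CPM in the input and 23.1, 20.0 and 25.8 CPM in m7G-RIP. All m7G-RIP libraries were above all input libraries, with a log2 enrichment of 2.08 (SE 0.27, edgeR adjusted p = 1.43e-05), the lowest of the family.

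miR-484, counted on the 5p arm of a RefSeq hairpin near the start of an annotated NDE1 transcript, had 9462, 13047 and 9134 counts in the input. In m7G-RIP it had 2608, 2117 and 1273. As CPM these were 807, 1022 and 797 in the input and 633, 477 and 469 in m7G-RIP. Input replicate 2 was the highest, m7G-RIP replicate 1 was the nearest to the input, and the groups did not overlap on this scale. The log2 enrichment was -0.73 (SE 0.17, edgeR adjusted p = 0.00121). The direction depends on how libraries are scaled: with DESeq2's size factors the value was -1.09, with upper-quartile factors 0.09 (adjusted p = 0.687 from edgeR) and with total counts 0.36 (adjusted p = 0.0288 from edgeR). As a share of all counts miR-484 was 0.0596% ± 0.006 (SD, n = 3) in the input and 0.0765% ± 0.00815 (SD, n = 3) in m7G-RIP.

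**Figure D2:**
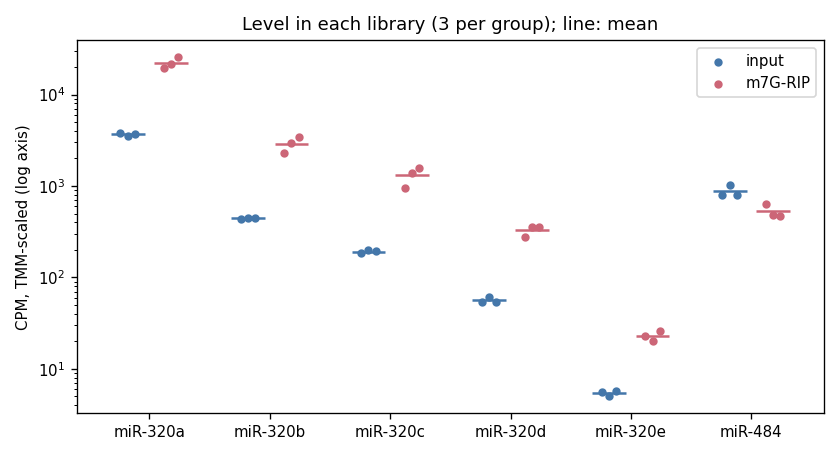
CPM of each member (log axis) in the 3 input libraries (blue) and the 3 m7G-RIP libraries (red), 1 point per library, with the mean as a line. The red points of miR-320a to miR-320e all lie above the blue ones, and those of miR-484 lie below them on this TMM scale.

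Scaling moves all miRNAs together and therefore sets where 0 lies. Relative to TMM, the median log2 enrichment over the tested miRNAs moved by -0.34 with DESeq2's size factors, by 0.82 with upper-quartile factors and by 1.09 with total counts. Of all calls, 51.3% were enriched under TMM and 69.1% under total counts. A change of scaling adds about the same constant to every miRNA, so distances from the median of all tested miRNAs are nearly fixed by construction and are given only to place the members. miR-484 lay 0.86 to 0.90 below that median in these 4 scalings, miR-320a lay 2.44 to 2.49 above it, and miR-320e lay 1.92 to 1.96 above it. In the order of all 800 tested miRNAs by log2 enrichment the miR-320 members held ranks 125 (miR-320c) to 196 (miR-320e), and miR-484 rank 486.

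**Figure D3:**
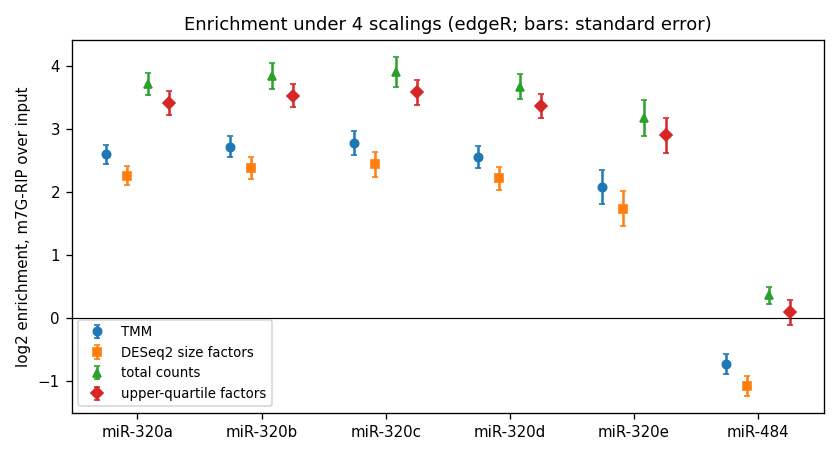
Log2 enrichment of m7G-RIP over input (vertical axis) for each member in edgeR under 4 scalings (TMM, total counts, upper-quartile factors and the size factors of DESeq2), with bars of 1 standard error. The miR-320 members stay between 1.73 and 3.90, and miR-484 goes from -1.09 to 0.36 across 0.

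A ratio of counts within a library needs no scaling between libraries. For each count of miR-484 there were 5.57, 4.17 and 5.52 counts of summed miR-320 (miR-320a to miR-320e) in input replicates 1 to 3, and 36.4, 55.8 and 66.3 in m7G-RIP replicates 1 to 3. The lowest m7G-RIP ratio was above the highest input ratio. On the log2 scale the mean ratio rose from 2.33 ± 0.24 (SD, n = 3) to 5.68 ± 0.44 (SD, n = 3), a difference of 3.35 or 10.2-fold. The two-sided exact permutation test gave p = 0.1, the smallest value that 3 against 3 libraries allow. The difference was 3.33 for miR-320a alone and between 2.82 (miR-320e) and 3.48 (miR-320c) for the other members. Under TMM miR-484 lay at -0.89 from the median log2 enrichment of all tested miRNAs. A miRNA at that median thus also rose relative to miR-484. 

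**Figure D4:**
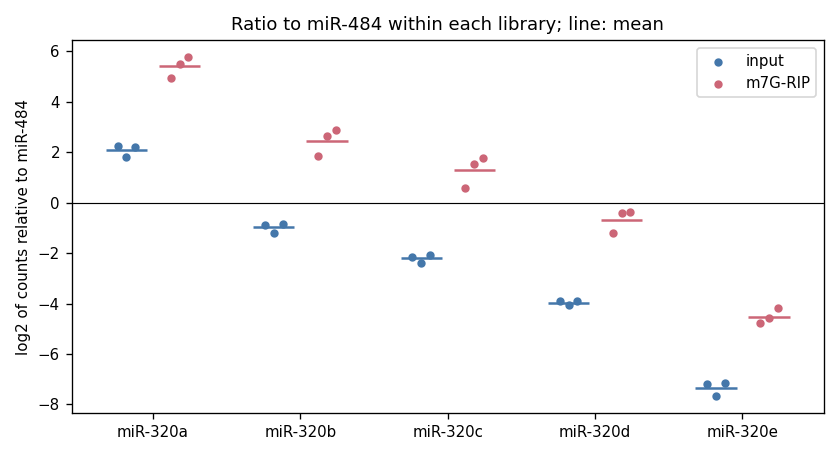
Log2 ratio of the counts of each miR-320 member to those of miR-484 in the same library (vertical axis), with the 3 input libraries in blue, the 3 m7G-RIP libraries in red and the mean as a line. The red points lie above the blue ones for all 5 members, by 2.82 to 3.48 on average.

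The order of the members changed with the immunoprecipitation. In all 3 input libraries it was miR-320a, miR-484, miR-320b, miR-320c, miR-320d and miR-320e from the highest count to the lowest. In all 3 m7G-RIP libraries miR-484 came after miR-320c, and the order of the miR-320 members was the same. The closest neighbours in m7G-RIP were miR-484 with 526 ± 92.6 CPM (SD, n = 3) and miR-320d with 330 ± 48.0 CPM (SD, n = 3), with miR-484 higher in 3 of 3 libraries.

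Within the family the proportions of the members were close in both groups. miR-320a made up 84.2% ± 0.829 (SD, n = 3) of the summed miR-320 counts in the input and 83.1% ± 1.23 (SD, n = 3) in m7G-RIP. miR-320b made up 10.1% ± 0.442 and 10.8% ± 0.618 (SD, n = 3 each), and these shares overlapped between the groups. Relative to miR-320a, the log2 ratio of miR-320b was 0.11 higher in m7G-RIP than in input, and that of miR-320c 0.15 higher, with a difference of -0.04 for miR-320d. The ratios of all 3 overlapped between the groups. The log2 ratio of miR-320e to miR-320a did not overlap. It was -9.42 ± 0.06 (SD, n = 3) in the input and -9.92 ± 0.19 (SD, n = 3) in m7G-RIP, a difference of -0.51 (two-sided exact permutation test, p = 0.1, the smallest possible, and 0.4 adjusted over the 4 ratios).

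The counts of single members are uncertain, because their reads can match several loci. The first 18 bases of miR-320d occur in 6 hairpins of the RefSeq table, from MIR320B1 to MIR320D2. The sequence of miR-320a, which made up 84.2% of the summed miR-320 counts in the input, was not available here. Whether its reads can also match these hairpins was therefore not examined. In the deposited counts, names with 4 RefSeq loci had whole multiples of 4 in 24 of 25 values above 0 (96%), and names with 2 loci had even values in 76.1%, against 47.1% for names with 1 locus. For some names the counts thus look as if a read that maps equally to several loci was counted at each of them. The counts of miR-320b, miR-320c and miR-320d, which have 2 loci each, were even in 3, 4 and 3 of 6 libraries. Summing the family gave a log2 enrichment of 2.64 (SE 0.15, edgeR adjusted p = 3.73e-09), which does not depend on how reads were assigned among its members but may count a read more than once.

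miR-4429, which shares the miR-320 seed, was measured on 105, 87 and 85 counts in the input and 151, 201 and 161 in m7G-RIP. Its log2 enrichment was 2.60 (SE 0.26, edgeR adjusted p = 1.01e-06), and its log2 ratio to miR-320a was -8.91 ± 0.15 (SD, n = 3) in both groups. The seed of miR-484 is shared with miR-3155a and miR-3155b. miR-3155a, with at most 11 counts in a library, was not tested. miR-3155b had 35, 49 and 23 counts in the input and 0, 1 and 0 in m7G-RIP and was called depleted (edgeR, adjusted p = 0.000334), with no fold given because its m7G-RIP counts are near 0.

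Base composition moved with enrichment across the miRNAs. For the 714 tested miRNAs with a mature sequence (89.2% of the 800), log2 enrichment had a Pearson's r of 0.498 and a Spearman's rho of 0.497 with the guanosine share. For the other bases Pearson's r was -0.12 (cytidine), -0.19 (adenosine) and -0.34 (uridine). These values describe points that come from the same 6 libraries and are not replicates. The miR-320 members are guanosine-rich, with 40.9% in miR-320b, 45% in miR-320c, 42.1% in miR-320d and 44.4% in miR-320e, and miR-484 has 18.2%.

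miRNAs were grouped by guanosine share after these values were seen. The 176 tested miRNAs with a share of at least 40%, miR-320b to miR-320e included, had a median log2 enrichment of 2.81 (quartiles 2.02 and 3.60). miR-320b, miR-320c, miR-320d and miR-320e, at 2.72, 2.77, 2.56 and 2.08, were within these quartiles. Of these 176 miRNAs 155 were enriched, where 40.1% of all tested miRNAs were. Some of the 176, 1 of them with 2, 2 and 1 input counts, passed the filter on low counts only through their m7G-RIP libraries. For those the filter itself favoured a call of enriched. The 199 miRNAs with a share under 20% had a median of -0.76 (quartiles -2.44 and 1.01), with miR-484 at -0.73. The 187 with 20% to under 30% had a median of -1.41 and the 152 with 30% to under 40% a median of -0.13, so the rise was not even across the range. Among miRNAs with log2 CPM averaging 5 or more the medians were 2.49 for the 36 with at least 40% and -1.61 for the 58 with under 20%. The part of guanosine content, of internal m7G and of the cap in the enrichment of the members was not tested.

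**Figure D5:**
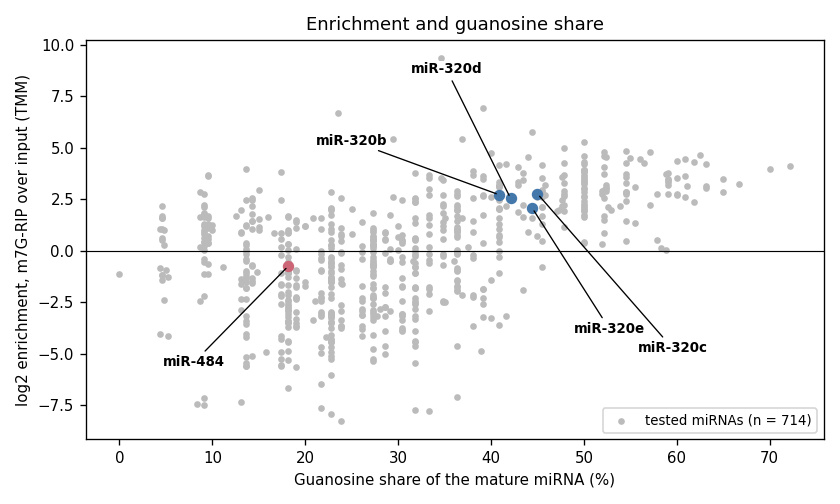
Guanosine share of the mature miRNA in percent (horizontal axis) and log2 enrichment of m7G-RIP over input under TMM (vertical axis) for 714 tested miRNAs (grey), with 4 miR-320 members in blue and miR-484 in red. The blue points lie between 2.08 and 2.77 at 40.9% to 45% guanosine, and the red one at -0.73 and 18.2%.

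Classical mirtrons as a class are described as released by splicing and debranching in place of Drosha, without a cap. They were taken as a second set, and how each listed entry is made was not examined. Their 5p arms begin at a splice donor and are often guanosine-rich, and their 3p arms end at a pyrimidine-rich splice acceptor. Of 22 entries listed from 11 mirtrons, 13 were tested and 10 were enriched, with a median log2 enrichment of 2.20, where 40.1% of all tested miRNAs were enriched and 38.1% depleted. None was depleted in edgeR (0 of 13, and 0 at an unadjusted p-value under 0.05), while DESeq2's Wald test called 9 enriched and 1 depleted. All 6 tested 5p arms were enriched (median 3.88, with a median guanosine share of 56.4%). Of the 7 tested 3p arms 4 were enriched (median 1.00, with a median guanosine share of 10%), beside 40.1% over all tested miRNAs. This difference was not tested. Some of the 5p arms, the scarcest with 2, 2 and 1 input counts, passed the filter on low counts only through their m7G-RIP libraries. For such arms the filter itself favoured a call of enriched, so the count of enriched 5p arms carries little weight. In miR-877 the 5p arm, of 55% guanosine, had a log2 enrichment of 4.53 (SE 0.30, edgeR adjusted p = 1.36e-08). Its 3p arm, of 4.76% guanosine, had a value of 0.26 (SE 0.21, edgeR adjusted p = 0.267). In miR-1226 the values were 2.20 for the 5p arm (SE 0.34, edgeR adjusted p = 5.37e-05) and -0.28 for the 3p arm (SE 0.18, edgeR adjusted p = 0.172). The differences between the members and these mirtrons were not tested.

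Profiles over the 6 libraries were compared after each was centred on its own mean, among miRNAs with log2 CPM averaging 5 or more. The nearest to summed miR-320, of 261 compared, were miR-92a-1-5p (root mean square difference 0.115 in log2 CPM, log2 enrichment 2.72), miR-2110 (0.121, 2.85) and miR-92b-5p (0.139, 2.43). The nearest to miR-484, of 264 compared, were miR-1307-3p (0.0607, -0.76), miR-126-3p (0.126, -0.77) and miR-27a-5p (0.157, -0.96). These miRNAs are named for their values alone.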

How the data were processed

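Small RNA was sequenced from 3 input and 3 m7G-RIP samples of Caco-2 cells. Libraries were made with the NEBNext small RNA kit. The authors trimmed adaptors with Trimmomatic, mapped reads to GRCh38 and counted them on mature miRNAs of miRBase with featureCounts. The study's methods name STAR as the aligner, with a read allowed to map to several loci, while the submitters' processing notes name Bowtie2. The table deposited by the authors holds counts that were not normalized, 1 value for each miRNA in each library. Intervals and tests take no account of PCR duplicates, since the reads carry no molecular identifiers.

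From these counts, enrichment was tested with edgeR 4.0.16 in R 4.3.3 (filterByExpr with a minimum count of 10 and a minimum total of 15, TMM factors, quasi-likelihood test, Benjamini-Hochberg adjustment, threshold 0.05). The standard error is the absolute log2 enrichment divided by the square root of F. Ratios within libraries were compared by two-sided exact permutation tests. The edgeR fit was run on simulated counts in which changes up and down were drawn alike. That setting does not test the choice of scaling, on which the direction of miR-484 depends. Python 3.11.15, numpy 2.4.6, pandas 2.3.3, scipy 1.17.1 and matplotlib 3.10.9 were used. Sequences and hairpins came from RefSeq (GRCh38.p14), matched by name for 2281 of 2588 miRNAs, and gene annotation from GENCODE release 44. The sequence and locus of miR-320a are not reported here.

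Alternatives were DESeq2's size factors, total counts, upper-quartile factors, DESeq2 1.42.0, 3 other filters, 2 stricter thresholds, 0.5 added to each count, other sums of the family, the number of guanosines, the replicate block and leaving out each library. Besides the members, miRNAs were named if they shared a member's seed, had 1 of the 3 nearest profiles to summed miR-320 or to miR-484, or were mirtron arms with log2 CPM averaging 5 or more. The members and lists were chosen with earlier results of these data known.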

Additional observations from a re-analysis of the deposited data

How the results depend on the processing

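All 69 values of the 5 miR-320 members under other scalings, filters, tests and with libraries left out stayed positive and past the threshold, between 1.73 and 3.90 on the log2 scale. miR-320e was not tested with log2 CPM averaging 5 or more. The value of miR-484 reversed with total counts (0.36) and upper-quartile factors (0.0873), and with log2 CPM averaging 5 or more it was -0.0351 and no longer called, so that 0 members were depleted in those settings and with an absolute log2 enrichment of at least 1. The log2 enrichment of miR-484 ranged from -0.92 to -0.60 when single libraries were omitted. With input replicate 2 left out, the difference for miR-320d changed sign both as a log2 ratio to miR-320a (0.0484, range over libraries left out -0.11 to 0.0484) and as a share of summed miR-320 (0.0221 percentage points, range -0.108 to 0.0221). Over all tested miRNAs, 182 were enriched and 175 depleted with at least 10 counts in every library, where 426 were tested, and 108 and 128 with log2 CPM averaging 5 or more, where 267 were tested. With total counts 198 were depleted. Pearson's r with the guanosine share was 0.42 without a filter, 0.468 with at least 10 counts in every library, 0.531 with log2 CPM averaging 5 or more, and 0.427 to 0.508 with each library left out, lowest without m7G-RIP replicate 3. With the replicate number as a block, 296 miRNAs were enriched and 295 depleted, 5 and 1 of them members. Deviations of same-numbered libraries correlated by -0.0142, -0.0275 and 0.06. Of the 3 input and 3 m7G-RIP libraries, 1 of each correlated best with its own number, so the main fit did not pair the samples by number. These values cannot show that the samples are unpaired. The study's protocol saves an aliquot of the RNA as the input control, so same-numbered samples may be pairs, as the block assumes. miR-320e rests on the fewest counts of the members, with 64 to 65 per input library and 70 to 95 per m7G-RIP library.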
